A study of Mus musculus with 5 samples.

Results

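The insulin receptor signaling components examined here were the 9 genes *Insr*, *Igf1r*, *Irs1*, *Irs2*, *Pik3r1*, *Akt1*, *Akt2*, *Foxo1* and *Foxo3*, taken by symbol from a table of 34615 gene symbols, 16286 of which averaged 1 FPKM or more over all mice and were tested (FPKM is the number of fragments mapped to a gene, scaled for exon length and library size). All 9 genes were among those tested. RNA had been sequenced from brain microvascular fragments of 3 WT and 2 heterozygous Ins2-AKITA male mice on a C57BL6 background, aged 26 to 38 weeks, with 1 library per mouse. The Ins2-AKITA allele is a mutation in 1 copy of *Ins2* that leaves too little circulating insulin and causes hyperglycemia, and the WT mice were littermates. The fragments had been captured on beads against PECAM1, so a library mixes endothelial cells with the pericytes, astrocyte end-feet and other tissue that came along. Markers of neurons and oligodendrocytes were detected in every mouse, and the values do not tell which cells the FPKM of a gene came from. The mutation acts on the pancreatic beta cell, and the brain vessels were therefore exposed to it through the blood.

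Insulin binds a receptor tyrosine kinase, which phosphorylates IRS adaptor proteins and through them recruits phosphoinositide 3-kinase (PI3K). The lipid product of PI3K brings AKT kinases to the membrane, and active AKT phosphorylates FOXO transcription factors and keeps them out of the nucleus. When insulin is low, nuclear FOXO can raise transcription of *Insr* and *Irs2*, so the upper part of the pathway is among its own targets. In the brain, endothelial insulin receptors are also known for carrying insulin across the vessel wall.

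This feedback runs through promoters, and short stretches of the 2 IRS promoters are shown because each holds a match to an insulin response element, searched as CAAAACAA on either strand. The sequences come from RefSeq promoter windows of 250 bases before to 50 after a transcription start (build GRCm38.p6), which held 8 of the 9 genes, all but *Insr*, in 13 windows. The match is in capitals, read in the direction of the gene, and began 33 bases before the start in *Irs1* (chr1:82291445-82291492, minus strand) and 38 bases before it in *Irs2* (chr8:11008940-11008987, minus strand).
Irs1: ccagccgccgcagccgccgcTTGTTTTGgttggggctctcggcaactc
Irs2: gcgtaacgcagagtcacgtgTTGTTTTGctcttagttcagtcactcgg
The same letters stood in 2.51% of all 32851 windows. The FOXO core motif, searched as GTAAACA on either strand, stood in 3.65% of all windows and in 1 window of these genes, an *Akt1* start, 161 bases before it (chr12:112675019-112675065, minus strand).
Akt1: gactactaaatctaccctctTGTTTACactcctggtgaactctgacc
The 3 matches stood in 3 different windows and did not overlap. A match describes the letters of a window and does not show that a factor binds there.

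None of the 9 genes passed an adjusted p of 0.05 between the genotypes (limma on log2(FPKM + 1), Benjamini-Hochberg over all genes tested), where 0.0246% of the genes tested did. Their adjusted p lay between 0.90 and 0.98. None had an unadjusted p under 0.05 either, beside 4.46% of all genes tested. Estimates were below 0 for 6 genes and above 0 for 3, with a median difference of -0.17 (Ins2-AKITA minus WT) beside -0.03 over all genes tested. All 6 turned positive under 2 of the 4 other scalings tried, endothelial marker scaling and a common FPKM sum. Those 2 scalings also raised the median of all genes tested, to 0.34 and 1.07. *Irs2* lay in both Ins2-AKITA mice below every WT mouse, as did 10.3% of all genes tested, and *Pik3r1* lay above every WT mouse, as did 9.24%. The other 7 genes overlapped between genotypes. With 3 against 2 mice, the exact permutation test could not give a p below 0.1.

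**Figure D1:**
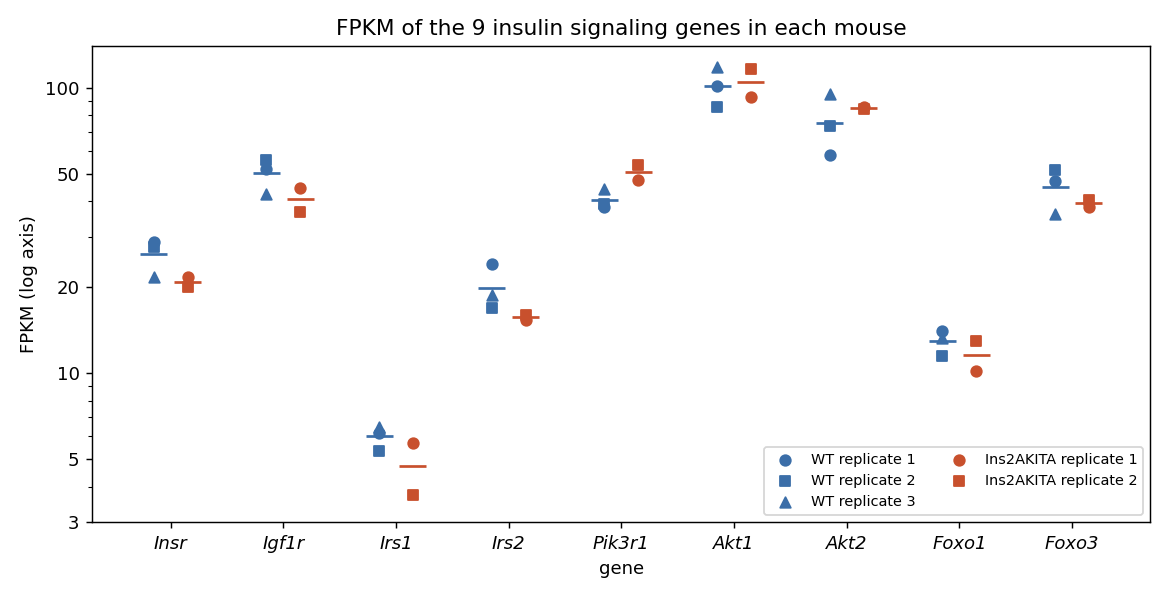
FPKM of each insulin signaling gene (horizontal axis) in each mouse on a log axis, with WT mice in blue, Ins2-AKITA mice in orange, the replicate by marker shape and group means as bars. The Ins2-AKITA values of *Irs2* (15.4 and 16.0) sit below, and those of *Pik3r1* (47.3 and 53.7) above, every WT value.

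The receptors came first in the pathway. *Insr* encodes the insulin receptor (ENSMUSG00000005534, chromosome 8 of NCBIM37 from 3150922 to 3279617, minus strand) and had 28.8, 27.7 and 21.7 FPKM in WT replicates 1 to 3 and 21.8 and 20.1 FPKM in Ins2-AKITA replicates 1 and 2. WT replicate 3 was as low as the Ins2-AKITA mice and was the one value that joined the groups. Mean levels were 26.1 ± 3.81 (SD, n = 3) in WT against 20.9 ± 1.20 (SD, n = 2) in Ins2-AKITA mice. The difference on the log2(FPKM + 1) scale was -0.30 (standard error 0.21), with a 95% interval of -0.81 to 0.22 and an adjusted p of 0.90 from limma. *Igf1r*, the receptor for insulin-like growth factors (ENSMUSG00000005533, chromosome 7 from 75097713 to 75371484, plus strand), had 51.8, 55.9 and 42.5 FPKM in WT against 44.4 and 36.8 in Ins2-AKITA mice. WT replicate 3 was again the lowest WT mouse and lay between the Ins2-AKITA values; it was also the deepest library, with an estimated 2850353 fragments against 1127891 to 1319525 in the other mice, and the part of depth in these values was not tested. Its difference was -0.29 (interval -0.79 to 0.21, adjusted p = 0.90 from limma).

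The 2 receptors kept a narrow proportion to each other. *Igf1r* exceeded *Insr* in FPKM, which is per length, by between 1.80-fold and 2.04-fold in the single mice. The log2 ratio of *Insr* to *Igf1r* was -0.94 ± 0.09 (SD, n = 3) in WT against -0.95 ± 0.11 (SD, n = 2) in Ins2-AKITA mice, and its genotype difference of -0.01 gave an exact two-sided permutation p of 0.9. A ratio of 2 genes within a mouse does not change when all values of a library are multiplied by 1 factor. In root mean square difference of centred log2(FPKM + 1) over the 5 mice, *Igf1r* was 0.071 away from *Insr* and stood at place 62 of all genes tested, whereas *Pik3r1* was 0.37 away. The nearest genes to *Insr* were *4831426I19Rik* (0.025), *Retsat* (0.026) and *Elac1* (0.028), and those to *Igf1r* were *Zfp426* (0.020), *Myl9* (0.023) and *Spire2* (0.030). With 5 mice 193 of the 16286 genes tested lay within 0.1 of *Insr* and 171 within 0.1 of *Igf1r*, so such closeness was not particular to the 2 receptors.

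The IRS adaptors carry the signal from the receptors. *Irs2* (ENSMUSG00000038894, chromosome 8 from 10986980 to 11008458, minus strand), whose promoter stretch is shown above, had 24.1, 17.0 and 18.8 FPKM in WT against 15.4 and 16.0 in Ins2-AKITA mice. WT replicate 1 was well above the rest, and the lowest WT mouse was close to the higher Ins2-AKITA mouse. Mean levels were 19.9 ± 3.73 (SD, n = 3) in WT against 15.7 ± 0.39 (SD, n = 2) in Ins2-AKITA mice. The difference was -0.31 (standard error 0.23, interval -0.87 to 0.25, adjusted p = 0.90 from limma). *Irs1* (ENSMUSG00000055980, chromosome 1 from 82229676 to 82287991, minus strand) had the lowest level of the 9 genes, with 6.14, 5.35 and 6.49 FPKM in WT against 5.67 and 3.75 in Ins2-AKITA mice. Its low value came from Ins2-AKITA replicate 2, since replicate 1 lay within the WT range. The difference was -0.31 with an interval of -1.05 to 0.43 (adjusted p = 0.90 from limma), the widest interval of the 9.

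*Irs1*, *Irs2* and *Foxo1* have 1 annotated transcript each, so their FPKM could be turned back into fragments, and all 15 values came out whole to within 0.05 of a fragment. *Irs2* rested on 107, 85 and 203 fragments in WT against 66 and 78 in Ins2-AKITA mice. From these counts, the exact 95% Poisson interval of the highest Ins2-AKITA value was 12.6 to 19.9 FPKM and that of the lowest WT value 13.5 to 21.0 FPKM. The gap between the genotypes in *Irs2* was therefore smaller than the counting error of either value. *Irs1* rested on 64, 63 and 165 fragments in WT and on 57 and 43 in Ins2-AKITA mice, which gives its lowest value an interval of 2.71 to 5.05 FPKM. These intervals cover counting error only. Annotated genes on the opposite strand share exon bases with each of these 3 genes. *Gm9747* shares up to 2822 bases with *Irs1*, *RP24-337A16.1* up to 589 with *Foxo1* and *9530052E02Rik* up to 162 with *Irs2*. Whether the authors counted by strand is not given in the sources used here.

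Among the IRS genes *Irs2* had the highest level, at between 2.72-fold and 4.26-fold the FPKM of *Irs1*. The log2 ratio of *Irs1* to *Irs2* was -1.72 ± 0.23 (SD, n = 3) in WT against -1.77 ± 0.46 (SD, n = 2) in Ins2-AKITA mice, with an exact permutation p of 0.9. *Irs4*, another adaptor gene below the level for testing, took 2.19% to 2.68% of the summed IRS FPKM in WT against 4.63% and 4.94% in Ins2-AKITA mice, from 4 to 12 fragments per mouse.

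*Pik3r1* encodes the p85-alpha regulatory subunit, which docks PI3K on phosphorylated IRS proteins (ENSMUSG00000041417, chromosome 13 from 102450716 to 102538172, minus strand). It had 38.1, 39.2 and 44.1 FPKM in WT against 47.3 and 53.7 in Ins2-AKITA mice. Both Ins2-AKITA mice exceeded the highest WT mouse, which was replicate 3. Mean levels were 40.5 ± 3.22 (SD, n = 3) in WT against 50.5 ± 4.49 (SD, n = 2) in Ins2-AKITA mice. The difference was 0.31 (standard error 0.18, interval -0.13 to 0.75, adjusted p = 0.90 from limma). Among the 3 genes of this subunit family, *Pik3r1* took 35.0%, 33.3% and 36.7% of the summed FPKM in WT against 40.5% and 39.8% in Ins2-AKITA mice. *Pik3r2*, the beta subunit, took 46.2% to 55.8% in WT against 42.6% and 41.6% in Ins2-AKITA mice, so both shares were without overlap, in opposite directions. Shares of 1 family sum to 100%, and these 2 are not independent of each other. The FPKM of *Pik3r2* itself overlapped, at 55.5 to 62.1 in WT against 49.8 and 56.0 in Ins2-AKITA mice. In FPKM, 9.24% of all genes tested lay without overlap above WT and 10.3% below, and no such percentage was taken for family shares.

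**Figure D2:**
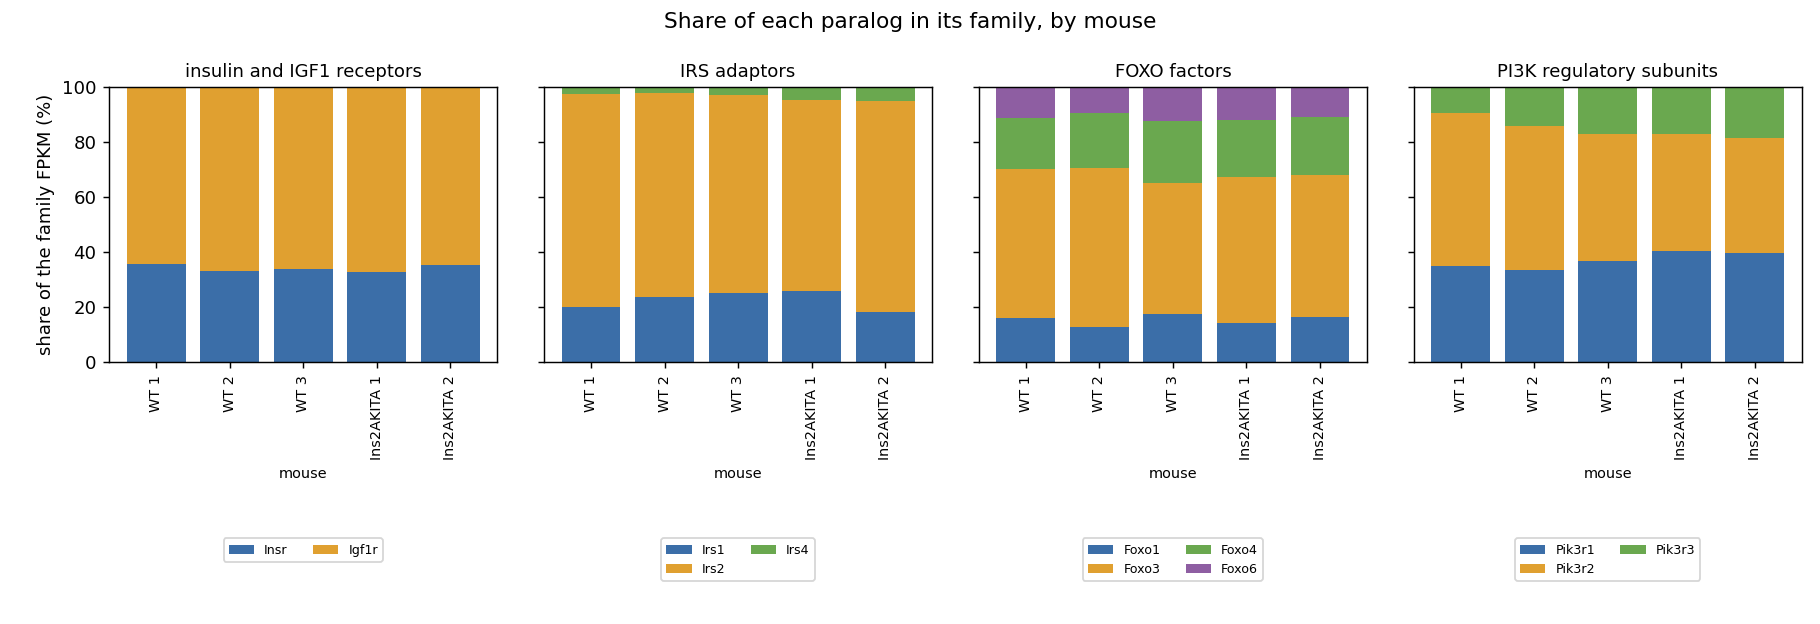
Share of the summed FPKM of a family (percent, vertical axis) taken by each paralog in each of the 5 mice (bars). *Insr* stays between 32.9% and 35.7% in all mice, and *Pik3r1* takes at least 39.8% in Ins2-AKITA and at most 36.7% in WT mice.

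The AKT kinases were the most abundant members. *Akt1* (ENSMUSG00000001729, chromosome 12 from 113892032 to 113913095, minus strand) had 102, 85.7 and 118 FPKM in WT against 93.0 and 116 in Ins2-AKITA mice. The Ins2-AKITA mice lay inside the WT range, and the difference of 0.04 (interval -0.48 to 0.56, adjusted p = 0.98 from limma) was the smallest of the 9. *Akt2*, the isoform best known for insulin-driven glucose uptake (ENSMUSG00000004056, chromosome 7 from 28376571 to 28425845, plus strand), had 58.1, 73.6 and 94.9 FPKM in WT against 85.5 and 84.2 in Ins2-AKITA mice. The WT mice differed from each other more than the groups did, and the Ins2-AKITA mice fell between WT replicates 2 and 3. The difference was 0.19 (interval -0.39 to 0.78, adjusted p = 0.92 from limma). The log2 ratio of *Akt1* to *Akt2* was 0.45 ± 0.32 (SD, n = 3) in WT against 0.29 ± 0.24 (SD, n = 2) in Ins2-AKITA mice, with an exact permutation p of 0.7.

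The FOXO factors stand at the nuclear end of the pathway. *Foxo1* (ENSMUSG00000044167, chromosome 3 from 52072259 to 52154031, plus strand), an AKT target with a known part in endothelial quiescence, had 13.99, 11.5 and 13.3 FPKM in WT against 10.2 and 12.99 in Ins2-AKITA mice. The Ins2-AKITA mice lay on either side of WT replicate 2. Its difference was -0.15 (interval -0.73 to 0.42, adjusted p = 0.93 from limma), from 87, 81 and 202 fragments in WT against 61 and 89 in Ins2-AKITA mice. *Foxo3* (ENSMUSG00000048756, chromosome 10 from 41901647 to 41996561, minus strand) had 47.0, 51.7 and 36.2 FPKM in WT against 38.3 and 40.4 in Ins2-AKITA mice. As for both receptors, WT replicate 3 was its lowest WT mouse, here below both Ins2-AKITA mice. Its difference was -0.17 (interval -0.69 to 0.35, adjusted p = 0.92 from limma). *Foxo3* was at between 2.72-fold and 4.49-fold the FPKM of *Foxo1*, and the log2 ratio of *Foxo1* to *Foxo3* differed by 0.01 between the genotypes (exact permutation p = 1). Over the 4 ratios tested, the Benjamini-Hochberg adjusted p was 1 for each.

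**Figure D3:**
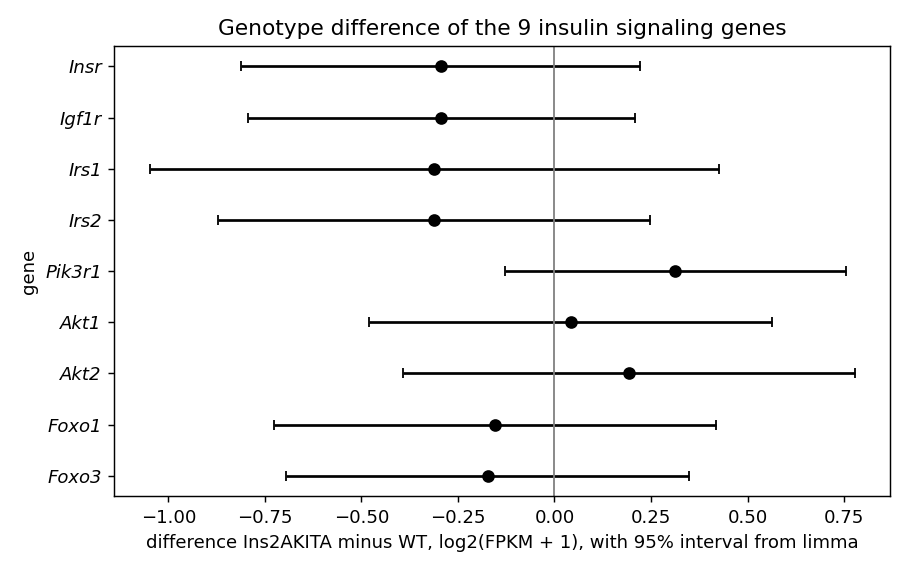
Difference of the mean log2(FPKM + 1) between Ins2-AKITA and WT mice (horizontal axis) for each of the 9 genes (vertical axis), with the 95% interval from limma as bars. Every interval crosses 0, and the estimates run from -0.31 for *Irs2*, which turns positive with endothelial marker scaling and with a common FPKM sum, to 0.31 for *Pik3r1*.

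The intervals of the 9 genes were wide. As folds on the log2(FPKM + 1) scale they ran from 0.57 to 1.17 for *Insr*, from 0.55 to 1.19 for *Irs2*, from 0.48 to 1.34 for *Irs1* and from 0.91 to 1.69 for *Pik3r1*. These limits hold for FPKM as deposited and moved with the scaling: with endothelial marker scaling the estimates were 0.12 (standard error 0.38) for *Insr* and 0.09 (standard error 0.42) for *Irs2*.

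In order of the WT means the genes ran *Akt1*, *Akt2*, *Igf1r*, *Foxo3*, *Pik3r1*, *Insr*, *Irs2*, *Foxo1* and *Irs1*. Neighbours overlapped in WT mice for *Akt1* and *Akt2*, *Igf1r* and *Foxo3*, *Foxo3* and *Pik3r1*, and *Insr* and *Irs2*, and did not for the other 4 pairs. *Akt1* nevertheless exceeded *Akt2*, and *Insr* exceeded *Irs2*, in 5 of 5 mice. *Foxo3* exceeded *Pik3r1* in 2 of 5, WT replicates 1 and 2, so the order of these 2 genes was not set by their levels. Among all genes tested, *Akt1* stood between percentiles 94.9 and 96.6 of its mouse, *Insr* between 71.4 and 78.4 and *Irs1* between 28.9 and 40.4.

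The summed FPKM of some marker lists did not overlap between the genotypes. Of all single genes tested, 9.24% lay without overlap above WT and 10.3% below, and no such percentage was taken for sums. In the lists with separate sums, single markers did not overlap for 3 of 10 endothelial, 5 of 6 smooth muscle, 3 of 7 astrocyte and 1 of 5 erythroid markers. A sum follows its most abundant genes, such as *Slc1a2* with a mean of 1595 FPKM among the astrocyte markers. Of 10 endothelial markers all were detected in every mouse, and 9 had estimates below 0, the most abundant being *Flt1*, a VEGF receptor (-0.53). Their summed FPKM was 351 to 558 in WT against 276 and 345 in Ins2-AKITA mice. *Pecam1*, which encodes the protein used for capture, had 92.8, 91.0 and 65.8 FPKM in WT against 63.1 and 58.3 in Ins2-AKITA mice. Astrocyte markers went the other way, with 7 of 7 estimates above 0, 0.62 for the glutamate transporter *Slc1a2*, and a summed FPKM of 2167 to 3022 in WT against 3381 and 4017 in Ins2-AKITA mice. The sum over 6 smooth muscle markers was 251 to 291 in WT against 151 and 189 in Ins2-AKITA mice. Summed levels of 9 pericyte markers (210 to 260 against 182 and 232 FPKM), 7 oligodendrocyte markers (1962 to 2645 against 2123 and 2336), 8 neuronal markers (1494 to 1635 against 1602 and 1989) and 8 microglial markers (153 to 190 against 141 and 161) overlapped. Those of 5 erythroid markers were 35.1 to 67.7 in WT against 25.1 and 32.4 in Ins2-AKITA mice. An unadjusted p under 0.05, always with a lower level in Ins2-AKITA mice, was found for 4 of 6 smooth muscle, 2 of 10 endothelial, 1 of 9 pericyte and 1 of 5 erythroid markers and for no other marker, beside 4.46% of all genes tested in either direction. None of these marker genes passed the adjusted threshold, and their part in the values of the insulin signaling genes was not tested. In such bulk samples, fewer cells of a type and less RNA per cell cannot be told apart.

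Relative to the endothelial markers the picture changed. The geometric mean of the 10 markers was 30.4, 45.6 and 30.2 FPKM in WT against 29.3 and 22.8 in Ins2-AKITA mice. *Insr* stood at 0.95, 0.61 and 0.72 of it in WT against at 0.74 and 0.88 in Ins2-AKITA mice, so that the Ins2-AKITA mice lay inside the WT range. *Irs2* stood at 0.79, 0.37 and 0.62 in WT against at 0.53 and 0.70 in Ins2-AKITA mice and likewise no longer separated the groups. *Pik3r1* stood at 1.25, 0.86 and 1.46 in WT against at 1.62 and 2.36 in Ins2-AKITA mice, and its groups still did not overlap. Its log2 ratio to the endothelial level differed by 0.75 (exact permutation p = 0.2). The share of all genes tested without overlap after this division was not counted, and their median rose with it, as given below.

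With each mouse divided by that endothelial level, the 6 estimates below 0 turned positive: *Insr* 0.12, *Igf1r* 0.13, *Irs1* 0.04, *Irs2* 0.09, *Foxo1* 0.24 and *Foxo3* 0.25. This scaling also moved the median of all genes tested to 0.34, and the same 6 genes lay below that median. The estimates of *Pik3r1* and *Akt2* were above 0 under all 15 alternatives, between 0.22 and 1.82 for *Pik3r1* and between 0.02 and 1.79 for *Akt2*. Neither passed the threshold in any alternative that kept all mice. Not all 15 could have changed the direction. Changes of filter, prior variance and row choice left both estimates as they were, and the replicate block gave those found without WT replicate 3. A common FPKM sum raised the median of all genes tested to 1.07.

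**Figure D4:**
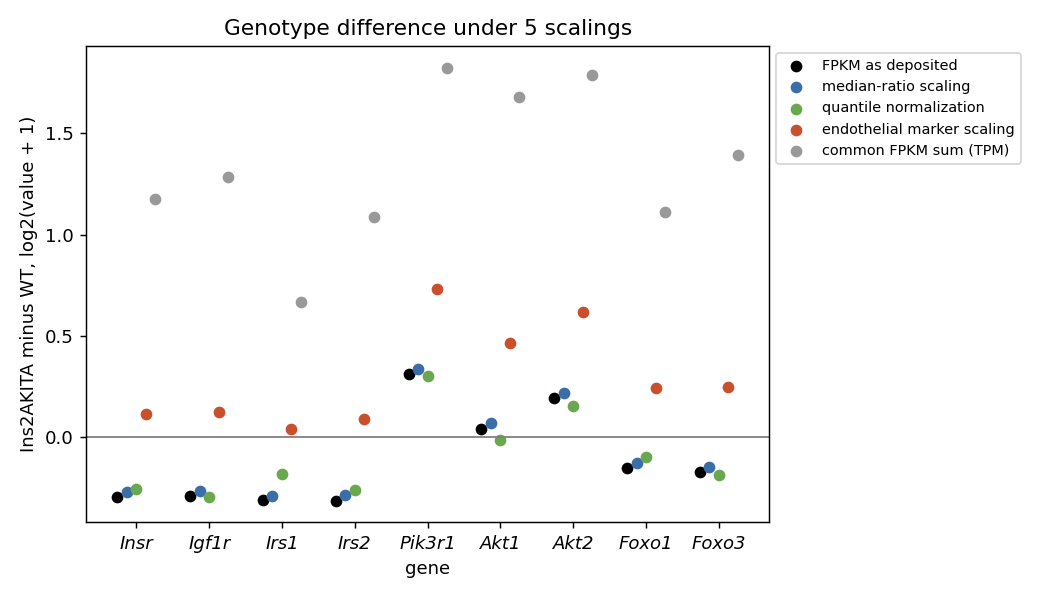
Genotype difference (Ins2-AKITA minus WT, log2 of the value plus 1, vertical axis) of each gene (horizontal axis) with FPKM as deposited and under the 4 other scalings (colours). *Insr*, *Igf1r*, *Irs1*, *Irs2*, *Foxo1* and *Foxo3* are below 0 as deposited, with median-ratio scaling and with quantile normalization and above 0 with endothelial marker scaling and with a common FPKM sum, whereas *Pik3r1* and *Akt2* are above 0 in all of them.

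The wider pathway was read from a list of 78 genes that includes the 9, of which 69 reached the level for testing. None passed the adjusted threshold in either direction and none had an unadjusted p under 0.05, where the alternatives gave 0 to 3 genes. Estimates were below 0 for 40 genes and above 0 for 29, beside 8718 below and 7568 above over all genes tested. The median of the 69 was -0.06. It was 0.30 with endothelial marker scaling and 1.23 with a common FPKM sum, beside 0.34 and 1.07 over all genes tested. The list median was also slightly above 0 with the replicate block (0.019), without WT replicate 3 (0.016) and without Ins2-AKITA replicate 1 (0.0007). The genotypes did not overlap for 10 genes that were lower and 6 that were higher in Ins2-AKITA mice, beside the 10.3% and 9.24% of all genes tested.

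Of the ligand genes, those for insulin were hardly detected. *Ins1* was listed at 0 in all mice, and *Ins2*, the mutated gene itself, was listed at 0 in 4 mice and at 1.51 FPKM in WT replicate 3, so the libraries cannot check the genotype. *Igf2*, the ligand with the highest level, had 29.4, 56.4 and 26.5 FPKM in WT against 34.7 and 22.9 in Ins2-AKITA mice. *Igf1* had 8.92, 0.48 and 3.29 FPKM in WT against 3.19 and 2.72 in Ins2-AKITA mice. Among the receptors the lowest estimate was that of *Igf2r*, which clears IGF2 from the cell surface (-0.43, interval -1.17 to 0.32, adjusted p = 0.90 from limma).

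Of 9 adaptors tested, the extremes were *Sh2b2*, an adaptor that binds the active insulin receptor, and *Grb2*, which links receptors to RAS. *Sh2b2* had 4.90, 2.31 and 1.74 FPKM in WT against 1.69 and 0.59 in Ins2-AKITA mice, a difference of -0.86 (interval -2.15 to 0.42, adjusted p = 0.90 from limma). *Grb2* had 53.7, 75.3 and 57.8 FPKM in WT against 81.8 and 85.0 in Ins2-AKITA mice, a difference of 0.43 (interval -0.07 to 0.93, adjusted p = 0.90 from limma). Both Ins2-AKITA mice lay outside the WT range for each gene, which for *Sh2b2* rested on 15, 8 and 13 fragments in WT against 5 and 2 in Ins2-AKITA mice. Among 6 inhibitors at this step, *Ptpn1*, a phosphatase that switches off the insulin receptor, had the highest estimate, with 35.0, 44.3 and 45.9 FPKM in WT against 51.0 and 58.6 in Ins2-AKITA mice (difference 0.39, interval -0.10 to 0.89, adjusted p = 0.90 from limma). *Socs3*, induced by cytokines, had the lowest (-0.35), with 8.47 FPKM in WT replicate 1 and 2.29 and 1.81 in the other WT mice.

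Among 6 PI3K subunits the estimates ran from -0.24 for the catalytic subunit *Pik3cd* to 0.54 for the regulatory subunit *Pik3r3*, which had 9.97, 16.4 and 20.6 FPKM in WT against 19.8 and 25.1 in Ins2-AKITA mice. Of 6 tested phosphatases and other brakes on the PI3K and AKT arm, *Phlpp1* was lowest (-0.17) and *Phlpp2* highest (0.29), both of which dephosphorylate AKT. Among AKT and its kinases the lowest estimate was -0.29 for *Mtor*, whose Ins2-AKITA values of 17.8 and 21.7 FPKM were below the WT values of 27.1, 23.9 and 21.9.

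The 13 AKT substrates and genes of the mTORC1 arm held the smallest p of the list. *Eif4ebp1*, a repressor of cap-dependent translation that mTORC1 inactivates, had 6.81, 5.01 and 4.65 FPKM in WT against 2.35 and 3.10 in Ins2-AKITA mice. These values rested on 6, 5 and 10 fragments in WT against 2 and 3 in Ins2-AKITA mice, so that the groups were set apart by a few fragments. The difference was -0.79 (standard error 0.33, interval -1.60 to 0.01, adjusted p = 0.90 from limma). *Bad*, a pro-apoptotic AKT substrate, had the highest estimate (0.55, interval -0.40 to 1.5), with overlapping values. The 4 FOXO genes were all estimated below 0 with FPKM as deposited, from -0.17 for *Foxo3*, positive under the scalings named above, to -0.09 for *Foxo6*.

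Of 16 tested FOXO targets, 10 estimates were below 0 and 6 above, with a median of -0.09. Over all 16286 genes tested, 8718 estimates were below 0, with a median of -0.03. The lowest was *Bcl2l11*, which encodes the cell death protein BIM, with 7.39, 4.32 and 4.25 FPKM in WT against 3.91 and 1.9 in Ins2-AKITA mice (difference -0.70, interval -1.69 to 0.28, adjusted p = 0.90 from limma). The highest was *Sesn3*, a stress-induced regulator of mTORC1, with 33.6, 34.8 and 54.8 FPKM in WT against 46.7 and 55.5 in Ins2-AKITA mice (difference 0.34, adjusted p = 0.90 from limma). *Insr* and *Irs2*, both targets in this list, were among the 10 with estimates below 0 with FPKM as deposited. Both were above 0 with endothelial marker scaling (0.12 and 0.09) and with a common FPKM sum (1.17 and 1.09). The median of all genes tested was 0.34 and 1.07 under these scalings, so the whole table moved with them.

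**Figure D5:**
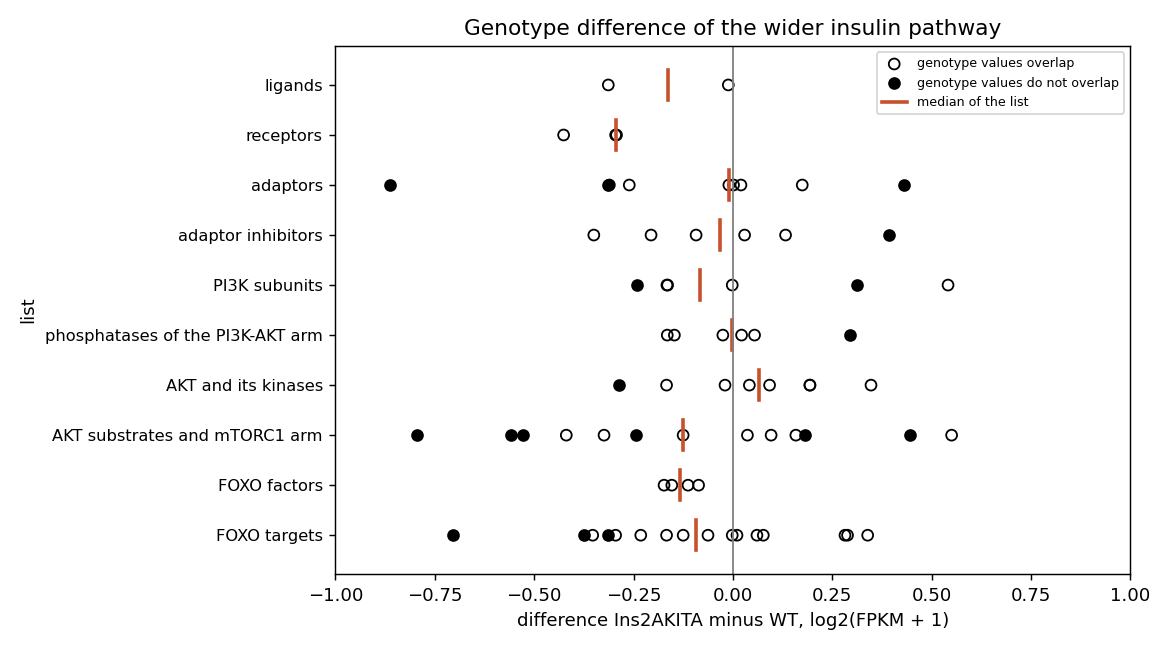
Genotype difference on the log2(FPKM + 1) scale (horizontal axis) of each tested gene of the wider pathway, by list (vertical axis), with filled points for genes whose genotypes do not overlap and an orange bar at the median of each list. List medians run from -0.30 for the receptors to 0.07 for AKT and its kinases, and no gene passed the adjusted threshold.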

How the data were processed

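Per the paper's methods and the submitters' processing notes, rRNA-depleted stranded total RNA libraries were sequenced, reads were mapped to NCBIM37 with TopHat2 (2.0.4), duplicates were removed with Picard (1.92) and Cufflinks (2.2.1) was used. The authors deposited 1 FPKM value per Ensembl gene and mouse. The program behind these values and the Ensembl release are not given in the sources used here. Duplicate removal can lower abundant genes.

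Of 37982 identifiers 37197 matched GENCODE vM1 (NCBIM37), and rows sharing a symbol were summed. limma 3.58.1 in R 4.3.3 (lmFit, eBayes with trend, two-sided, Benjamini-Hochberg) was run on log2(FPKM + 1) for the 16286 symbols averaging 1 FPKM or more, with genotype as the factor, and was tested on simulated data. Other steps used Python 3.11.15. Fragments per mouse (1127891 to 2850353) were estimated from genes with 1 transcript over 800 bases, of which 97.6% to 97.9% of low values fell on whole fragments (within 0.05). Small RNA and ribosomal RNA genes took 40.6% to 96.7% of the summed FPKM, so FPKM were not rescaled. Each library was 1 mouse, and p-values measure only the spread between these mice. Alternatives changed the pseudocount, filter, scaling, prior variance, replicate block, row choice and mice included. Promoter windows were from RefSeq.

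Members and lists were chosen with earlier results of these data known. Named beyond the members are, in each pathway list, the tested genes with the highest and lowest difference, the most abundant endothelial and astrocyte markers, and the 3 genes nearest to each receptor. To these, *Pik3r2*, *Irs4*, *Pecam1*, *Ins1* and *Ins2* were added after their values were seen. A gene that this rule names is not reported here.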

Additional observations from a re-analysis of the deposited data

How the results depend on the processing

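No alternative brought any of the 9 members, or any of the wider pathway, past an adjusted p of 0.05 in limma, and the count of 0 was the same in all 15 alternatives. At an unadjusted p under 0.05 there were 0 members with FPKM as deposited and 1, *Pik3r1*, without the filter on low values. In the wider pathway there were 0 as deposited, 3 with TPM, 3 without WT replicate 3, 2 without the filter and 0 or 1 otherwise. The adjusted p of the members was 0.27 to 0.32 with a common FPKM sum (TPM) and 0.60 to 1 in the other alternatives. Leaving out an Ins2-AKITA mouse assumes that the remaining one varies like the WT mice.

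TPM moved the median of all genes tested to 1.07 and the median of the members from -0.17 to 1.29; it gave 1.17 for *Insr*, 1.29 for *Igf1r*, 0.67 for *Irs1*, 1.09 for *Irs2*, 1.11 for *Foxo1* and 1.39 for *Foxo3*, and 1.23 for the median of the wider pathway (-0.06 as deposited). Small RNA shares that differ between mice enter this sum. Endothelial marker scaling gave 0.24 and 0.30 for these medians, and 0.12, 0.13, 0.039, 0.090, 0.24 and 0.25 for the same 6 genes in that order. *Akt1* became -0.012 with quantile normalization. With 1 mouse left out, *Akt1* ran from -0.12 to 0.20 (below 0 without WT replicate 2 or Ins2-AKITA replicate 2), *Foxo1* from -0.32 to 0.0095 (above 0 without Ins2-AKITA replicate 1), the members' median from -0.26 (without WT replicate 3) to -0.13 and the wider median from -0.084 to 0.016 (above 0 without WT replicate 3 or Ins2-AKITA replicate 1); *Insr*, *Igf1r*, *Irs1*, *Irs2*, *Foxo3*, *Pik3r1* and *Akt2* kept their direction, with *Irs1* between -0.56 without Ins2-AKITA replicate 1 and -0.066 without Ins2-AKITA replicate 2. The within-mouse log2 ratio differences ran from -0.085 to 0.068 for *Insr* to *Igf1r*, -0.37 to 0.28 for *Irs1* to *Irs2*, -0.33 to 0.026 for *Akt1* to *Akt2* and -0.18 to 0.18 for *Foxo1* to *Foxo3*, and *Irs1* to *Irs2* became 0.0022 with 1 added to each FPKM.

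The labels number the mice of both genotypes but do not say that a number marks a litter, and with 2 Ins2-AKITA mice, whose deviations are exact opposites, the check of pairing (correlations of 0.051 and -0.034 for same-numbered mice) cannot show it. With the replicate block the members' median was -0.26, the wider median 0.019 and the *Irs1* to *Irs2* difference 0.051, the adjusted p of *Insr* was 0.60, and no call changed. The cause of these shifts was not tested. Of the members whose fragments could be counted, *Irs1* had the fewest, at 43 to 165 per mouse, and some genes of the wider pathway had far fewer.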

Other observations

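Several genes of the wider pathway differed more between WT mice than between genotypes, with WT replicate 1 at the end of the range. They were chosen after their values were seen, and counting error was not separated from differences between mice. In WT replicates 1 to 3, *Socs3* rested on about 26.3, 8.1 and 13.7 fragments and *Gadd45a* on about 33.5, 5.2 and 32.9. These counts are approximate because both genes have several transcripts. *Socs3*, an inhibitor induced by cytokines, had 8.47 FPKM there and 2.29 and 1.81 in the other WT mice. *Gadd45a*, a growth arrest gene of the FOXO target list, had 18.7 FPKM there and 2.55 and 7.51 in the other WT mice, beside 5.13 and 10.7 in Ins2-AKITA mice. The adaptor inhibitor *Grb14* had 9.26 FPKM in that mouse and 24.5 and 23.3 in the other WT mice, and the S6 kinase gene *Rps6kb1* had 5.08 against 13.1 and 12.1.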
